A study of Mus musculus with 5 samples.

Results

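The mRNAs of 7 postsynaptic proteins were followed through an RNA immunoprecipitation (RIP) experiment on mouse hippocampus: Shank1, Shank2, Shank3, Dlgap3, Grin2b, Grin3a and Iqsec1. They were chosen by name, and every called region that the deposited annotation placed on one of these genes was counted. They are 7 of 4727 genes with such a region in at least 1 list. The libraries were knock-in HA (2 mice, anti-HA antibody), knock-in IgG (the same 2 mice, control mouse IgG) and wild-type HA (1 mouse, anti-HA antibody), all from C57BL/6 hippocampus. The knock-in mice stand for CYFIP1 by the title of the study; the labels give no tag position, promoter, age or sex. With 1 wild-type library, the comparison with wild type holds no variation between wild-type animals.

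The Shank proteins are large scaffolds of the postsynaptic density, the protein layer under excitatory synapses. Dlgap3 (SAPAP3) links Shank proteins to PSD-95, and PSD-95 binds the tails of NMDA receptors, glutamate-gated calcium channels that serve synaptic plasticity. Grin2b and Grin3a encode NMDA receptor subunits, and Iqsec1 (BRAG2) encodes an exchange factor for the GTPase Arf6. CYFIP1 binds the fragile X protein FMRP and the cap-binding protein eIF4E, and is also a subunit of the WAVE complex, which drives actin assembly.

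Each of 4 deposited lists pairs 1 knock-in HA library with 1 control and gives the reads of both in every region called. With IgG as control the lists gave 4191 regions for mouse 1 and 1920 for mouse 2; with wild-type HA as control they gave 5355 and 5362. A fold below is a gene's HA reads over its control reads, all its regions added up, divided by the list's middle ratio among regions with 20 or more reads. That middle ratio was 2.89 (mouse 1) and 0.947 (mouse 2) with IgG as control, and 1.41 and 1.75 with wild-type HA. Intervals are 95% exact (Clopper-Pearson) counting intervals on 1 pair of libraries; reads are not independent molecules, so they cover counting error only. The lists hold the reads of called regions, so library depth is unknown. Input RNA was not analysed here, so more binding, more RNA per cell and more cells of a type cannot be told apart. The mRNA of Cyfip1 itself had 6101 HA against 67 IgG reads for mouse 1, and for mouse 2 it had 6186 against 115. Over wild type, the same HA reads stood against 431 and 416 wild-type reads. These are reads of the mRNA, so they do not show how much tagged protein was pulled down. Of 8 neuronal marker genes, at most 3 had a region in a list, and microglia, endothelium and choroid plexus markers had none in any list; of 4 astrocyte markers, 1 or 2 had a region.

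The mouse 2 list over IgG differs in make-up from the other 3. In that list 90.6% of genes lay on chromosomes 12 or 15, against 31.0% in mouse 1 over IgG and 26.8% and 30.7% over wild type. Genes on these chromosomes had a median HA to IgG ratio of 0.755 in that list and genes elsewhere 4.00, so the median that sets the folds there belongs mainly to chromosomes 12 and 15. Of the 54 genes off those chromosomes with at least 20 reads, 74.1% stood at 2-fold or more. Folds over IgG in mouse 2 depend on this median.

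Coding windows of 4 members are shown as sequence from GENCODE M21 transcripts on mm10, in the sense of the mRNA. Capitals mark AGGA or TGGA, the short elements reported for FMRP binding. Shank2 and Shank1 are shown from inside the regions that held their mouse 2 reads over IgG, and Dlgap3 from inside the region called in all 4 lists. Grin2b is shown as the receptor subunit, from a window with 13 HA, 2 IgG and 27 wild-type reads in mouse 1, a small part of its reads.
Shank2, chr7:144410551-144410850, plus strand: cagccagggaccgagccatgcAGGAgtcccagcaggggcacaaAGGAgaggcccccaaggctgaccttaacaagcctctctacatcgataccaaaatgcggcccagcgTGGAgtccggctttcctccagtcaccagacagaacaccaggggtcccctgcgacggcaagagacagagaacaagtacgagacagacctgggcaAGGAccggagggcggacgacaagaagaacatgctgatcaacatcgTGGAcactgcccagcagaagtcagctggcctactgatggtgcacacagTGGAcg
Shank1, chr7:44352951-44353250, plus strand: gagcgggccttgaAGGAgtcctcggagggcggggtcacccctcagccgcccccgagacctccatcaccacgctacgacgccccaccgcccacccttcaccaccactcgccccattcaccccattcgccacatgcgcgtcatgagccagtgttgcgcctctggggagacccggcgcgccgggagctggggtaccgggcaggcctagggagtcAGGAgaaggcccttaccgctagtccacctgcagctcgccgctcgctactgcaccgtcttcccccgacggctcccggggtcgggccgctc
Dlgap3, chr4:127214690-127214989, plus strand: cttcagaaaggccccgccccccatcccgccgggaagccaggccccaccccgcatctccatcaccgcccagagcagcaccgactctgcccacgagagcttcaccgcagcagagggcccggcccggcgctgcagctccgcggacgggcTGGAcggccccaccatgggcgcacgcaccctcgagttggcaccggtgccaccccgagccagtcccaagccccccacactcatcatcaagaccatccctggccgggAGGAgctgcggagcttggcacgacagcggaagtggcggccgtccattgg
Grin2b, chr6:135780134-135780336, minus strand: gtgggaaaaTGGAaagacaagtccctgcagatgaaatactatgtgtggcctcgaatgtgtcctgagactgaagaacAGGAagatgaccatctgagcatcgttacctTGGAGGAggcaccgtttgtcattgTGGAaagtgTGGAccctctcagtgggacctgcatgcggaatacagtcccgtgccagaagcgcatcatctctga
The Shank2 window lies in exon 22 of 23 of its transcript and holds 6 of these elements, and 35.9% of 109208 coding windows of 300 bases hold at least as many. The Shank1 window (exon 24 of 25 of its transcript) and the Dlgap3 window (exon 7 of 12 of its transcript) hold 2 each, and 92.4% of such windows hold at least as many. The Grin2b exon 6 of 14 of its transcript, at 203 bases, holds 6 with overlapping matches counted, and 13.3% of windows of its length hold at least as many. On the opposite strand the same letters occurred 2, 3, 2 and 1 times. The windows differ in base composition: GC content was 59.3% in Shank2, 70.7% in Shank1, 71.3% in Dlgap3 and 50.7% in Grin2b. Over whole coding sequences, Dlgap3 had 64.8% GC, above 97.1% of 21697 genes, while Grin2b had 52.9%, near the median of 51.7%.

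Shank2 had the highest ratio of HA to control reads of the members in all 4 lists, though its counting interval against Shank3 over wild type in mouse 2 includes equality. Over IgG, its single region in mouse 1 held 1239 HA against 110 IgG reads, an HA to IgG ratio of 11.3. In mouse 2 it held 511 HA against 74 IgG reads, a ratio of 6.91. Relative to the median region this was 3.89-fold (interval 3.20 to 4.77) in mouse 1 and 7.29-fold (interval 5.71 to 9.44) in mouse 2, a mean log2 fold of 2.41 ± 0.64 (SD, n = 2). With the scale from regions off chromosomes 12 and 15, added after seeing the data (3.40 in mouse 1 and 11.2 in mouse 2), Shank2 stood at 3.31-fold in mouse 1 and 0.618-fold in mouse 2. The mean log2 fold was then 0.52, so the side of 1 on which Shank2 falls in mouse 2 depends on the scale. That scale is a median over regions, and Cyfip1 alone gave 26 regions in mouse 2 over IgG, with 6186 HA against 115 IgG reads. Its weight in that median was not tested. Over genes off these chromosomes the median ratio in that list was 4.00, below the 6.91 of Shank2. Over wild type, Shank2 held 53 HA against 13 wild-type reads for mouse 1 and 1013 HA against 250 wild-type reads for mouse 2. The ratios were 4.08 and 4.05, or 2.89-fold (interval 1.55 to 5.77) and 2.32-fold (interval 2.01 to 2.67), a mean log2 fold of 1.37 ± 0.23 (SD, n = 2). Both lists over wild type use the same wild-type library, so this SD holds no variation of the control.

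The Shank2 reads did not come from the same place in every list. Over IgG in mouse 1 the region was chr7:144393801-144426200, 32.4 kb over the 3′ end of the gene, of which 7389 bases are exonic; it is also annotated to Gm14372. In mouse 2 the region over IgG was chr7:144409601-144411800, wholly coding. The same 2.2 kb was called over wild type in mouse 2, together with chr7:144420601-144423800, which is exonic throughout with 532 coding bases, at 502 HA against 121 wild-type reads. In mouse 1 over wild type the regions lay elsewhere in the gene: chr7:144174801-144193000 held 47 HA against 13 wild-type reads, and an 800-base region held 6 HA against 0 wild-type reads. The Shank2 call over wild type in both mice therefore rests on different stretches of the gene and, in mouse 1, on few reads. The authors' deposited empirical false discovery rate over IgG was 0.571 for the mouse 1 region and 5.21e-128 for the mouse 2 region. Over wild type it was 0.103 and 0.121 for the mouse 1 regions, and 1.30e-184 and 1.86e-149 for those of mouse 2. How these rates were computed is not known here, and they are not read as a measure of HA over control.

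**Figure D1:**
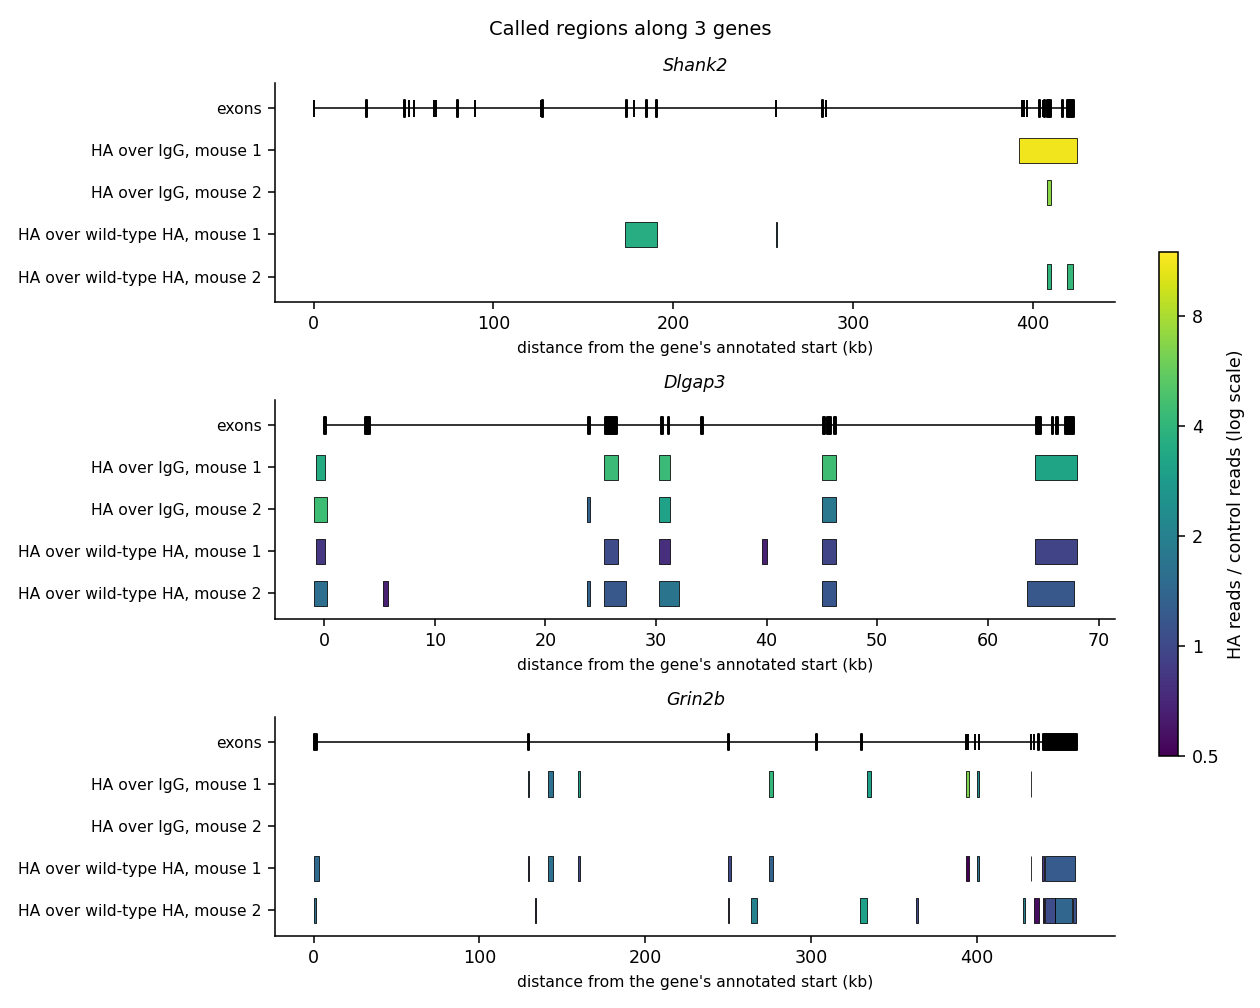
Called regions along Shank2, Dlgap3 and Grin2b by distance from the annotated gene start (kb), with exons in black and the 4 lists below; colour gives the ratio of HA to control reads on a log scale, with 3 reads in place of a control of 0. Shank2 regions of mouse 2 sit at the 3′ end, where the ratios were 6.91 over IgG and 3.96 over wild type, while mouse 1 over wild type was called nearer the middle of the gene.

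Shank1 was close to the median region over wild type in mouse 1 and somewhat below it in mouse 2, and had a region over IgG in mouse 2 only. That region, chr7:44351601-44354600, is wholly coding and held 633 HA against 225 IgG reads, 2.97-fold (interval 2.55 to 3.48). Over wild type, Shank1 held 1531 HA against 1137 wild-type reads for mouse 1, from 1 region of 58.2 kb that spans the whole gene and is also annotated to Clec11a and 1700008O03Rik. In mouse 2 it held 746 HA against 491 wild-type reads. These gave 0.954-fold (interval 0.883 to 1.03) and 0.868-fold (interval 0.774 to 0.975), a mean log2 fold of -0.14 ± 0.10 (SD, n = 2). A lower fold was held by 32.9% of genes with at least 20 reads in mouse 1 and by 27.3% in mouse 2. Within mouse 2 over wild type, 3 short exonic windows of 200 bases held 41 HA against 17, 37 against 15, and 35 against 13 wild-type reads, ratios of 2.41, 2.47 and 2.69, while the long coding window had 1.42. With the scale of mouse 2 over IgG taken from regions off chromosomes 12 and 15 (a ratio of 11.2), the Shank1 log2 fold over IgG is -1.99 in place of 1.57, and with the pooled ratio its mean log2 fold over wild type is 0.69, so both directions depend on the scale.

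Shank3 had few reads and little exonic sequence among its regions. Over IgG it held 36 HA against 10 IgG reads for mouse 1, 1.24-fold (interval 0.605 to 2.81), in a region that overlaps no exon. In mouse 2 it held 54 HA against 43 IgG reads, 1.33-fold (interval 0.872 to 2.03), of which 32 HA against 37 IgG reads came from 1 region of 7.41 kb. Over wild type it had no region in mouse 1 and 22 HA against 7 wild-type reads for mouse 2, 1.80-fold (interval 0.741 to 4.98). All of these intervals include 1. Over IgG its mean log2 fold of 0.36 becomes -0.39 with the pooled ratio and -1.53 with the scale from regions off chromosomes 12 and 15. Shank3 lies on chromosome 15, and its place on that chromosome was not tested as a part of its values.

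Dlgap3 stood above the median region over IgG and below it over wild type in both mice, though the interval over IgG in mouse 1 includes 1. It held 228 HA against 61 IgG reads for mouse 1 and 118 HA against 47 IgG reads for mouse 2, 1.29-fold (interval 0.970 to 1.74) and 2.65-fold (interval 1.88 to 3.80). Over wild type it held 230 HA against 240 wild-type reads for mouse 1 and 310 HA against 243 wild-type reads for mouse 2. The folds were 0.679 (interval 0.564 to 0.817) and 0.729 (interval 0.614 to 0.866), a mean log2 fold of -0.51 ± 0.07 (SD, n = 2). With the pooled ratio as scale the mean log2 fold over wild type is 0.32. Over IgG the mean log2 fold of 0.89 becomes -1.01 with the scale from regions off chromosomes 12 and 15, where mouse 2 stood at 0.225-fold. Its side of 1 is fixed by these data over neither control.

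One Dlgap3 region, chr4:127214251-127215500, was called with the same coordinates in all 4 lists, and it is the member region with at least 20 reads that allows a test over libraries. Every region in these fits was already in both lists with the same control, drawn from the same reads. The p-values and counts below come after that selection. What a region had to pass to be listed is unknown, and it was not always HA above control. Over wild type in mouse 2, for example, the Grin2b region chr6:135733001-135733400 held 5 HA against 12 wild-type reads. The authors' deposited empirical false discovery rate of the Dlgap3 region over IgG was 0.0526 in mouse 1 and 0.474 in mouse 2. Over wild type it was 2.35e-64 and 3.36e-65. The HA to wild-type ratios of the same region were 0.957 in mouse 1 and 1.17 in mouse 2. A low deposited rate therefore does not by itself stand for HA above the control. The region held 45 and 55 HA reads, 10 and 31 IgG reads and 47 wild-type reads. In unscaled reads the HA libraries thus lay above the IgG libraries and on both sides of the wild-type library. Over IgG, limma on log2(reads + 0.5) gave a log2 difference of 0.74 (SE 0.30, adjusted p = 0.0554), which missed the threshold of 0.05; 74 of the 80 regions in that fit (92.5%) were called higher and 0 lower (0%; 0 also at an unadjusted p under 0.05). With libraries centred on their medians over these 80 regions the difference was -2.55 (adjusted p = 0.00435), so its direction depends on the scale. Without either IgG library the adjusted p was 9.09e-06 or 1.76e-05, but these fits take their spread from the HA pair alone (SE 0.16) and assume that the lone IgG library varies like it. Without knock-in HA 1 it was 0.294 and without knock-in HA 2 it was 0.473. Over wild type the log2 difference was -0.57 (SE 0.20, adjusted p = 0.169), in a fit of 68 regions of which 6 (8.82%) were called higher and 14 (20.6%) lower. The balance turned to 23 higher and 8 lower with the pooled ratio, and was 8 higher and 25 lower with centred libraries. That fit has 2 libraries against 1. In simulated data with 4-fold changes it called 15 of 17 changed regions with no noise beyond counting and at 5% noise, and 0 of 17 at 14.1%. The first level came from a median over regions of the HA pair, cut off at 0. Such a median runs low with 2 libraries, so it does not show that the pair lacks noise beyond counting. The spread of wild-type libraries is not known from 1 library.

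Grin2b, Iqsec1 and Grin3a were the remaining members. Grin2b had 47 HA against 11 IgG reads for mouse 1, 1.48-fold (interval 0.755 to 3.16), and no region over IgG in mouse 2. Over wild type it held 392 HA against 338 wild-type reads for mouse 1 and 329 HA against 264 wild-type reads for mouse 2, 0.821-fold (interval 0.708 to 0.953) and 0.712-fold (interval 0.604 to 0.841). With the pooled ratio the mean log2 fold of Grin2b over wild type is 0.44 in place of -0.39, and with regions at the authors' adjusted p below 0.05 it is 0.76, so its direction depends on these choices. Most of these reads came from the long last exon: chr6:135714201-135732400 alone held 294 HA against 239 wild-type reads for mouse 1. Iqsec1 had 45 HA against 12 IgG reads for mouse 1, 1.30-fold (interval 0.674 to 2.69), and no region over IgG in mouse 2. Over wild type it held 109 HA against 116 wild-type reads for mouse 1 and 112 against 94 for mouse 2, 0.665-fold and 0.681-fold (mean log2 fold -0.57 ± 0.02, SD, n = 2). With the pooled ratio that mean is 0.26, so its direction depends on the scale. Grin3a had a single region, chr4:49770751-49771250, wholly coding, in all 4 lists, with 3 HA reads in each mouse, 0 IgG reads in either and 1 wild-type read, too few for a fold.

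**Figure D2:**
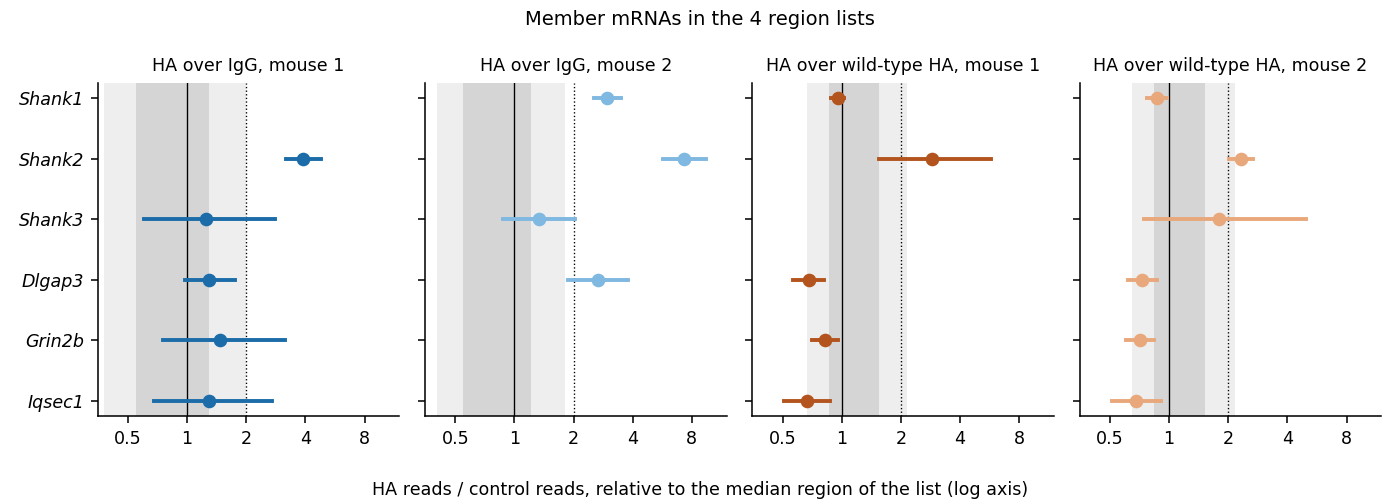
Fold of each member with at least 20 reads in the 4 lists (log axis), with 95% counting intervals; dark and light grey bands hold the middle 50% and 80% of all genes with at least 20 reads, and dotted lines mark 2-fold. Shank2 stands right of the bands in all 4 lists, from 2.32-fold to 7.29-fold; for mouse 2 over IgG the bands are set mainly by genes on chromosomes 12 and 15.

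The 2-fold mark was reached by 1 of 5 members over IgG in mouse 1, where 9.66% of all genes with at least 20 reads reached it, and by 3 of 4 in mouse 2 (Shank2, Shank1 and Dlgap3), where 8.76% did. Those 3 genes lie off chromosomes 12 and 15, where 74.1% of genes in that list did. Over wild type it was reached by 1 of 5 members in mouse 1 (13.4% of all genes) and 1 of 6 in mouse 2 (11.6%), in each case Shank2. A fold of 0.5 or less was reached by 0 members in any list, against 20.1% and 18.9% of genes with IgG as control and 4.22% and 4.59% with wild-type HA (15.8% and 3.18% of genes in both mice). All 5 members over IgG in mouse 1 and all 4 in mouse 2 with at least 20 reads were above the median region ratio, as were 39.3% and 35.2% of genes. Over wild type this held for 1 of 5 members in mouse 1 (63.1% of genes) and 2 of 6 in mouse 2 (60% of genes). In both mice together, 1 of 3 members reached 2-fold over IgG (6.12% of genes) and 1 of 5 over wild type (6.11%). The count over IgG was 0 when regions shared with another gene were left out, which removes the mouse 1 region of Shank2, and 0 with the scale from regions off chromosomes 12 and 15. With IgG as control the median fold of these members was 1.30 in mouse 1 (0.839 for all genes) and 2.81 in mouse 2 (0.822 for all genes, 4.23 for those off chromosomes 12 and 15). With wild-type HA it was 0.821 (1.15) and 0.799 (1.10). Among genes off chromosomes 12 and 15, the share with a lower fold than Shank2 was 94.3% (mouse 1) and 63.0% (mouse 2) with IgG as control, and 96.1% and 90.8% with wild-type HA.

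Set against each other within a list, the members need no scale, since the same factor divides out. The HA to IgG ratio of Shank2 was 3.01 times that of Dlgap3 in mouse 1 (interval 2.10 to 4.30) and 2.75 times in mouse 2 (interval 1.77 to 4.25). Its HA to wild-type ratio was 4.24 times that of Dlgap3 in mouse 1 (interval 2.21 to 8.72) and 3.17 times in mouse 2 (interval 2.54 to 3.97). Against Shank1 the factor was 2.45 over IgG in mouse 2 and 3.03 and 2.67 over wild type. Against Grin2b it was 2.63 over IgG in mouse 1 and 3.51 and 3.25 over wild type, and against Iqsec1 it was 3.0, 4.32 and 3.40. Against Shank3 it was 3.12 and 5.48 with IgG as control, and 1.29 with wild-type HA in mouse 2, where the interval of 0.460 to 3.17 includes 1. Of 16 such comparisons, the other 15 had intervals above 1. They are not separate tests: those within a list share its Shank2 reads, and all over wild type share 1 control library. These factors were chosen after the values were seen, and each is 1 library pair with counting error only.

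**Figure D3:**
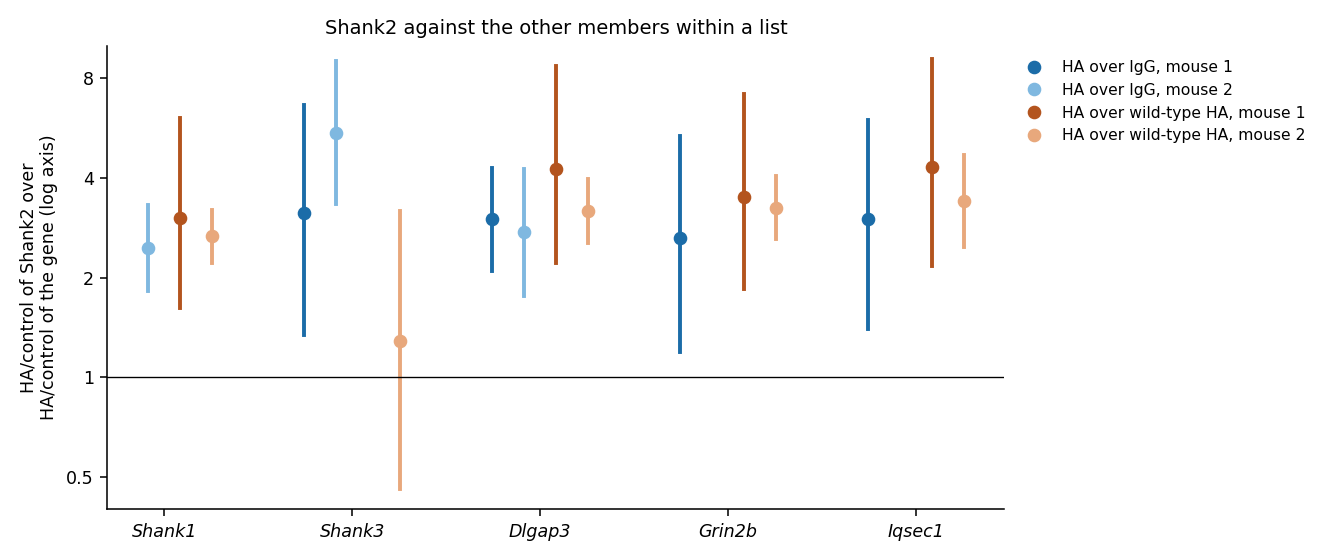
Ratio of HA to control reads of Shank2 divided by that of each other member in the same list (log axis), with 95% counting intervals. Of 16 comparisons, 15 lie above 1 with their interval, and the comparison with Shank3 over wild type in mouse 2, at 1.29, does not. Comparisons within a list share the same Shank2 reads.

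Where a window was called with the same coordinates over both controls, the 3 libraries can be read side by side. In mouse 2 the Shank2 coding window of 2.2 kb held 232 HA, 33.6 IgG and 58.6 wild-type reads per kb. The Shank1 coding window held 211 HA, 75 IgG and 149 wild-type reads per kb. Dlgap3, over 5 windows in mouse 1, held 28.5 HA, 7.62 IgG and 30 wild-type reads per kb, and over 3 windows in mouse 2 it held 32.7 HA, 13.8 IgG and 24.4 wild-type reads per kb. In mouse 1, Grin2b held 44 HA, 10 IgG and 46 wild-type reads over 7 windows and Iqsec1 held 45 HA, 12 IgG and 52 wild-type reads over 3 windows. Shank3, over 5 windows in mouse 2, held 22 HA, 6 IgG and 7 wild-type reads. In unscaled reads, Dlgap3, Grin2b and Iqsec1 in mouse 1 had HA above IgG. Their HA lay below the wild-type library by few reads (228 against 240 for Dlgap3). Shank1, Shank2, Shank3 and Dlgap3 in mouse 2 had HA above both controls. No interval was computed for sums over several windows. Medians were taken over such windows of any gene or none with at least 20 reads in the 3 libraries together (778 in mouse 1, 644 in mouse 2). The median HA to IgG ratio was 2.56 in mouse 1 and 0.840 in mouse 2, and the median HA to wild-type ratio was 1.55 and 1.83. Some member windows above hold fewer reads than that.

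**Figure D4:**
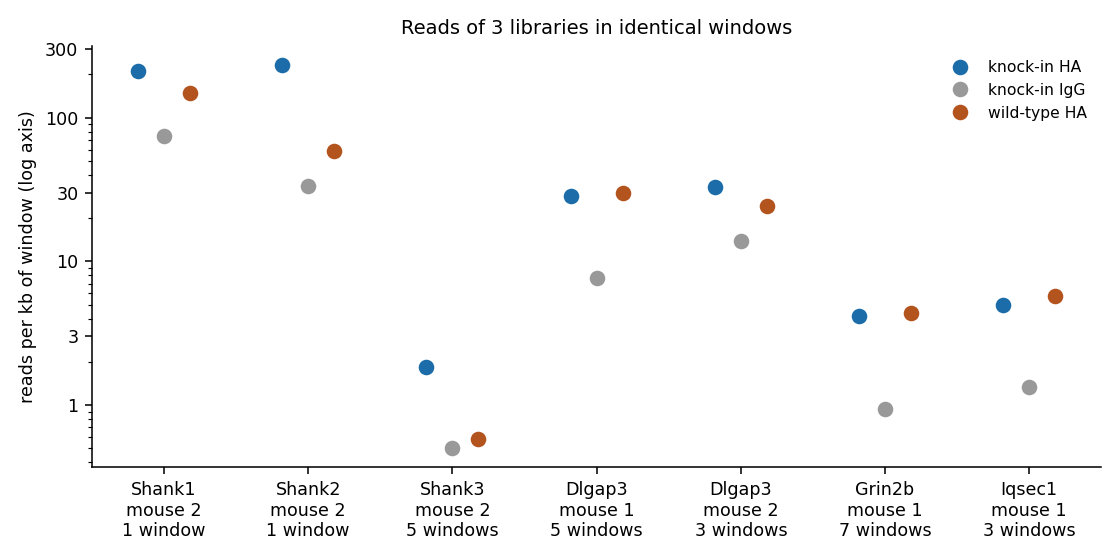
Reads per kb (log axis) of knock-in HA, knock-in IgG and wild-type HA in windows with the same coordinates over both controls, summed per member and mouse. In the Shank2 window HA stands at 232, IgG at 33.6 and wild-type HA at 58.6 reads per kb, while for Dlgap3 in mouse 1 HA (28.5) and wild-type HA (30) are close.

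Of 43 other genes of the postsynaptic density and glutamate receptors, 16 had a region and 15 had at least 20 reads in at least 1 list. The share of all annotated genes with a region was not computed, so 16 of 43 cannot be called high or low. Whether a gene has a region also depends on depth and on the calling, which are not known here. The 27 without a region include Grin1 and Grin2a, subunits of the NMDA receptor, Dlg4, which encodes PSD-95, Camk2a and Homer1. Over IgG in mouse 2, where 3 of the listed genes had at least 20 reads, 1 reached 2-fold: Dlgap4, of the Dlgap family, at 57 HA against 13 IgG reads, a ratio of 4.38. In that list 8.76% of genes reached it, and 74.1% of those off chromosomes 12 and 15. In the other 3 lists 0 of 6, 8 and 9 listed genes did, against 9.66% of all genes in mouse 1 over IgG and 13.4% and 11.6% over wild type. A fold of 0.5 or less over wild type was reached by 4.22% of all genes in mouse 1 and 4.59% in mouse 2. Sipa1l1, which encodes a Rap GTPase-activating protein of the postsynaptic density, was the one listed gene at 0.5-fold or less, at 0.338-fold in mouse 1 (86 HA against 180 wild-type reads) and 0.360-fold in mouse 2 (85 HA against 135 wild-type reads) with wild-type HA as control; with IgG it had 77 HA against 25 reads in mouse 1 (1.06-fold) and 77 against 88 in mouse 2 (0.924-fold). Iqsec2, a paralogue of Iqsec1, held 196 HA against 37 IgG reads for mouse 1 (1.83-fold) and 215 HA against 180 wild-type reads for mouse 2 (0.683-fold). Gria3, an AMPA receptor subunit, held 93 HA against 40 wild-type reads for mouse 2 (1.33-fold).

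Among the genes most like Shank2 over the 4 lists, by Euclidean distance of log2 folds among 270 protein-coding genes with at least 20 reads in every list, were Wasf1 and Spryd3, at distances of 2.00 and 2.46. Wasf1, which encodes WAVE1, stood at 1.99-fold (mouse 1) and 2.18-fold (mouse 2) with IgG as control, and at 3.26-fold and 2.26-fold with wild-type HA. For Dlgap3 the nearest genes were 1810041L15Rik, Myo10 and Elfn2, at 0.598, 0.843 and 0.866. A word of 50 bases from the exons of Shank2, Shank3, Dlgap3, Grin3a or Iqsec1 occurred in no other gene's transcripts; 1 of Grin2b and 32 of 10519 of Shank1 (0.304%) did.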

How the data were processed

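The deposited lists hold other values in their attribute text, namely the reads of an HA and of a control library per region, not scaled for library size, per the file headers; the authors' deposited adjusted p-value served as a filter in 1 alternative. Per the file headers, coordinates are on mm10 and rtracklayer 1.28.9 wrote the lists. TopHat, TopHat2, GRCm38 and mm10 are named in the submitters' processing notes; no source used here names the region caller. Per the labels' protocols, a NEBNext Ultra kit and single-end reads were used. Depth per sample is unknown.

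Regions placed on a gene were summed per gene and list with pandas 2.3.3. Genes needed 20 reads, HA plus control, for a fold, and where a control had 0 reads, 3 per gene and list stood in as floor. With 1 library against 1 in a list there is no p-value. limma 3.58.1 (R 4.3.3) tested identical regions with at least 20 reads in each list, with a pseudocount of 0.5 and Benjamini-Hochberg adjustment at 0.05. A count model was not used because the lists give no library totals. Control columns were shifted by the list's median ratio. In simulated data with 4-fold changes the IgG fit called 20 of 20 changed regions at each of 3 noise levels. The wild-type fit called 15 of 17 with no noise beyond counting, 15 of 17 at 5% and 0 of 17 at 14.1%. The level without such noise was the median estimate for the HA pair, cut off at 0, and does not show that the pair has none. The first simulation was the one at 14.1%, and the lower levels were added after it.

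HA and IgG libraries of 1 number come from the same mouse by their titles; over 80 regions the deviations of the pairs had a correlation of -0.04. The mice are numbered without further detail, so p-values may hold technical variation only. Members, gene lists and the rule for named genes (all members, up to 12 listed genes with the most reads, and the 3 nearest patterns) were chosen with earlier results of these data known; some results for listed or named genes are not reported here. Alternatives were the scale, read and fold limits, region classes, the pseudocount, each replicate left out and the replicate block; the raw ratio and the scale without chromosomes 12 and 15 were added after seeing the data.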

Additional observations from a re-analysis of the deposited data

How the results depend on the processing

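The count of members at 2-fold in both mice over IgG was 1 and became 0 with regions on no other gene, with regions inside the gene, and with a limit of 4-fold, 2 with raw ratios, and 0 with the scale from regions off chromosomes 12 and 15; with either replicate left out it ranged from 1 to 3. Over wild type it was 1 and became 0 at a limit of 4-fold. That added scale is a median over regions, 3.40 and 11.2 over IgG, and Cyfip1 alone gave 26 regions of the mouse 2 list. With that scale the log2 fold of Shank1 over IgG was -1.99, of Shank2 0.52, of Dlgap3 -1.01 and of Shank3 -1.53, against 1.57, 2.41, 0.89 and 0.36. With the pooled ratio, the log2 fold over IgG was -0.39 for Shank3 and -0.04 for Iqsec1 (0.37 with the median), and over wild type Shank1 (0.69), Dlgap3 (0.32), Grin2b (0.44) and Iqsec1 (0.26) turned to above 0. The regions that limma called higher over IgG numbered 74, and 7 (with 12 lower) when libraries were centred; 73 were called with the mouse as replicate block, where the Dlgap3 region had an adjusted p of 0.148. Over wild type 6 were called higher and 14 lower, 13 and 8 with no minimum of reads, 23 and 8 with the pooled ratio, and 8 and 25 centred. The Dlgap3 region's log2 difference over IgG was -0.013 with the pooled ratio and -2.55 centred, and over wild type 0.26 with the pooled ratio. The causes of these shifts were not tested. All regions in the limma fits had been listed beforehand from the same reads, so these counts come after that selection. Leaving out an HA library over wild type leaves no residual degrees of freedom and was not run. Unknown depth, 1 wild-type library and few reads per region limit every value.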
